A study of Mus musculus with 2 samples.

Results

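The mRNAs of the proteasome were compared between RNA recovered with an anti-FLAG antibody (FLAG IP) and the RNA before recovery (input). The genes were chosen by name alone: every probe whose gene symbol in the authors' deposited table begins with Psm, a letter from a to g and a number. The rule found 66 probes of 43 genes, among 41174 probes and 20161 named genes on the array, and all 43 genes passed the filter on dim probes. Of these genes, 18 have more than 1 probe and 25 have 1. By the protein they encode, 18 genes belong to the core particle (8 Psma, 10 Psmb), 20 to the regulatory particle or its assembly (6 Psmc, 14 Psmd) and 4 to other activators or an inhibitor. The remaining gene, Psmc3ip, matches by its name, but its protein is a meiotic recombination factor and no proteasome subunit, so it is given apart.

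The tissue was the whole male gonad of MCH strain mice at embryonic day 14.5. All gonads, input included, carried 1 transgene, labelled Tg-Nanos2 enhancer-3xFLAG-Nanos2-3'UTR, in which the Nanos2 enhancer drives FLAG-tagged Nanos2. NANOS2 is an RNA-binding protein of male germ cells, and the comparison asks which mRNAs of the gonad are found with it. Input had 2 arrays and FLAG IP had 2 arrays, described as biological duplicates, and the labels do not say how many gonads went into each. A precipitate from gonads without the tag was not analysed here, so the values give a share of RNA relative to input and have no background of untagged recovery beside them.

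The proteasome breaks down proteins that carry chains of ubiquitin. Its core particle is a barrel of stacked rings, in which alpha subunits (Psma) gate the ends and beta subunits (Psmb) form the inner rings, some of them with the protease sites. The regulatory particle caps the barrel: its base holds a ring of ATPases (Psmc) that unfold the substrate and pull it in, and its lid and the other non-ATPase subunits (Psmd) bind ubiquitin chains and remove them. Some cells swap subunits. Psmb8, Psmb9 and Psmb10 replace the catalytic subunits Psmb5, Psmb6 and Psmb7 in the interferon-inducible immunoproteasome, and Psma8 replaces Psma7 in the proteasome of spermatogenic cells.

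Levels are given as scaled signal, the log2 of a probe's brightness relative to the brightness at the 75th percentile of its array, so 0 is that percentile and 1 unit is a doubling. Such a level depends on the probe as well as on the RNA, so each gene was compared only with itself between groups. The brightness at the 75th percentile was 1026 and 1038 for input, 55.7 for the first FLAG IP array (replicate 1) and 608 for the other (replicate 2), and 66%, 70.2%, 42.7% and 65.4% of probes were well above background on these 4 arrays. The replicate SD of a gene had a median of 0.05 for the proteasome genes on input arrays and of 0.30 on FLAG IP arrays, so most of the error below comes from the FLAG IP. Nanos2 itself rose by 1.88 ± 0.20 (SE) on the log2 scale (limma, adjusted p = 0.00477). Markers of other gonad cells moved between the groups too. Of all genes tested, 28.0% rose and 25.4% fell (limma, adjusted p under 0.05). Of the germ cell markers 6 of 12 rose and 1 fell, and their summed signal, in multiples of the 75th percentile, ranged from 91.5 to 96.5 on input and from 184 to 202 on FLAG IP arrays. All 10 Sertoli cell, all 5 Leydig cell, all 6 mesenchyme and all 4 erythroid markers tested fell (5 of the Sertoli markers when the background was corrected by normexp in place of the scanner's own correction), as did 5 of 7 macrophage markers (1 with normexp) and 3 of 6 endothelial markers (1 with normexp), and the summed Sertoli signal went from between 120 and 138 to between 20.4 and 22.4. The part of cell type in the proteasome values was not tested, and the arrays give recovery relative to input from whole gonads, in which the number of cells of a type and the RNA per cell cannot be told apart.

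Proteasome mRNAs were mostly lower in the FLAG IP. By limma (adjusted p under 0.05, with the Benjamini-Hochberg method applied to all 15266 genes that were tested), 20 of the 43 genes fell, 3 rose and 20 did not pass, while 25.4% of all genes tested fell and 28.0% rose. The median log2 fold change of the 43 genes was -0.68 against 0.07 for all genes tested. It was below 0 for 34 of the 43, against 47.9% of all genes, and the single genes ranged from -2.52 (Psme1) to 1.58 (Psma8). On both FLAG IP arrays the signal was below both input arrays for 28 genes, which was so for 38.2% of all genes, and above both for 6 genes, which was so for 42.0%. With 2 arrays a group, the p-values measure the spread between these arrays. The calls lean on the pair of input arrays, which lie close together: without input replicate 1 none of the 43 genes was called in either direction by limma (unadjusted p under 0.05: 15 lower, 1 higher). When input replicate 2 was left out instead, 6 were called lower and 0 higher (15 and 1 unadjusted). With FLAG IP replicate 1 or 2 left out, 27 or 28 were called lower and 6 higher.

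**Figure D1:**
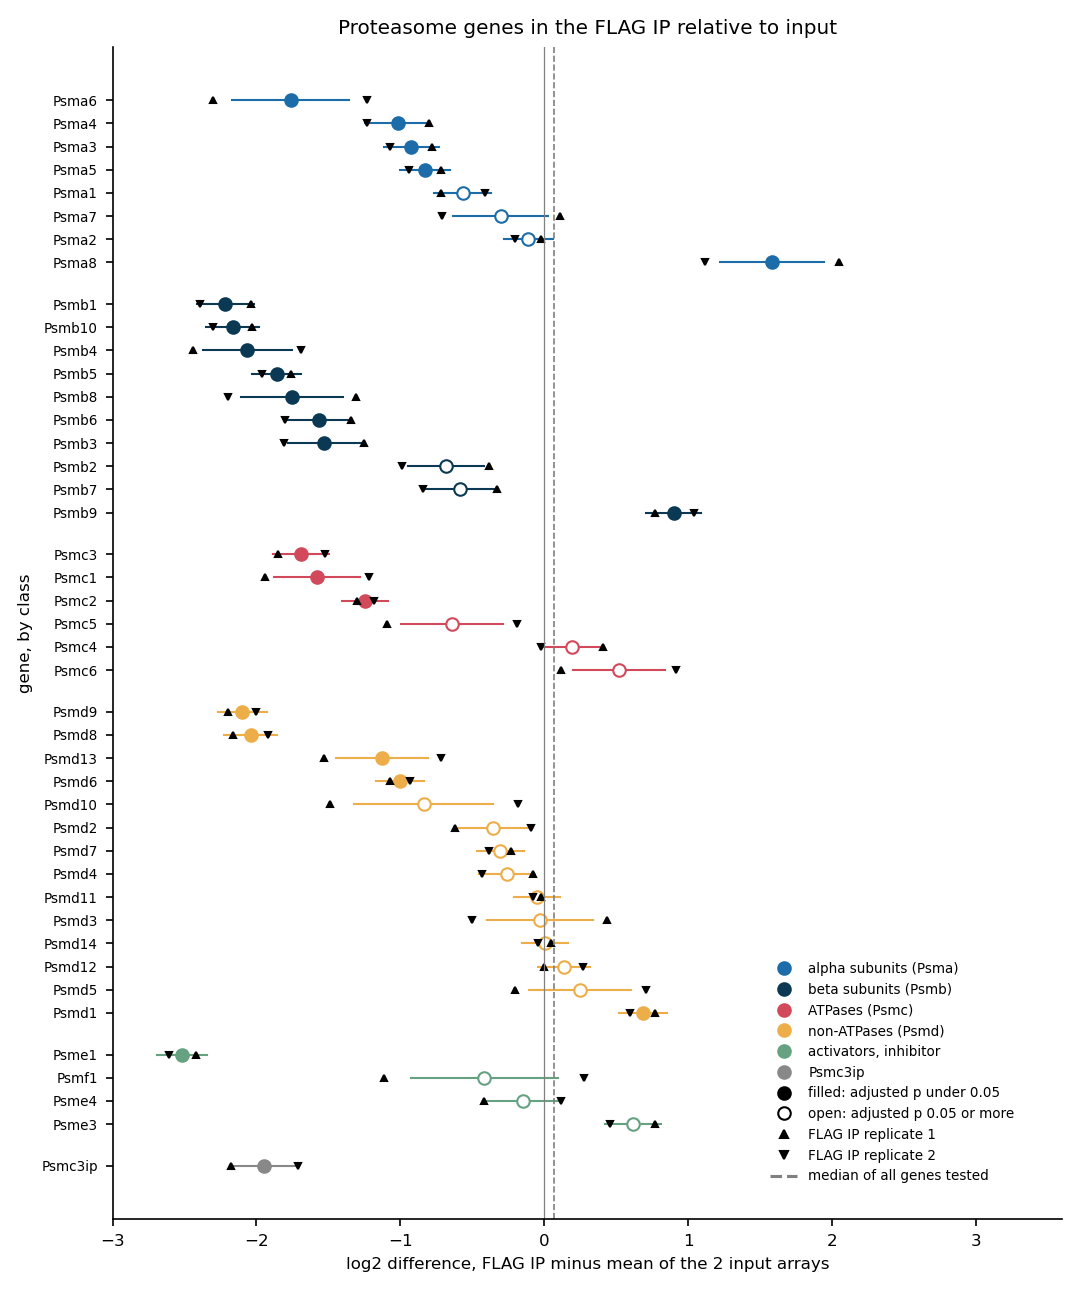
Log2 fold change of each of the 43 genes (circle, with its SE as a bar) between FLAG IP and the mean of the 2 input arrays, by class; black triangles are the single FLAG IP arrays, filled circles passed limma's adjusted p of 0.05, and the dashed line is the median of all genes tested, 0.07. Most core genes lie left of the line, many Psmd genes lie close to it, and Psma8, Psmb9 and Psmd1 are the 3 filled circles to its right.

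The core particle stood further below input than the regulatory particle. Of 18 core genes, 11 fell (61.1%), 2 rose and 5 did not pass. By 2-fold or more, 9 of the 18 fell, against 21.0% of all genes tested. Of 20 regulatory particle genes, 7 fell (35.0%), all 7 by 2-fold or more, 1 rose and 12 did not pass. Of all genes tested, 25.4% fell and 28.0% rose. The median log2 fold change was -0.97 for the core and -0.33 for the regulatory particle, a gap of -0.64. Averaging all probes of a gene brought the regulatory median to -0.61 and the gap to -0.34, and the regulatory median ran from -0.69 (normexp) to -0.11 (quantile normalization) under other scalings. Array by array, the core median minus the regulatory median, each relative to the input mean, was 0.02 and -0.02 for input and -0.37 and -0.86 for the first and the second FLAG IP array. Both FLAG IP arrays thus had the core lower, and they differed in how far. Fewer genes were called in both classes with normexp (5 core and 2 regulatory genes lower), with slide as a block (4 and 3) and without input replicate 2 (3 and 2), and none without input replicate 1. No test was made of the gap, since the genes are not replicates of a condition. The core median was below the regulatory median in all 15 other ways of processing that were tried, but not all of these could move the gap. Median centring shifts all genes of an array alike, and the trend and robust settings and the replicate block leave fold changes as they are. Those ways, no filter on dim probes and keeping marked spots all left the gap at -0.64. Slide as a block gave the same gap as leaving out input replicate 1 (-0.63 in both), since that array was alone on its slide. In the authors' deposited table the ratio of FLAG IP to input was below 1 for 16 of 18 core genes and 15 of 20 regulatory genes, with medians of 0.470 and 0.733.

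**Figure D2:**
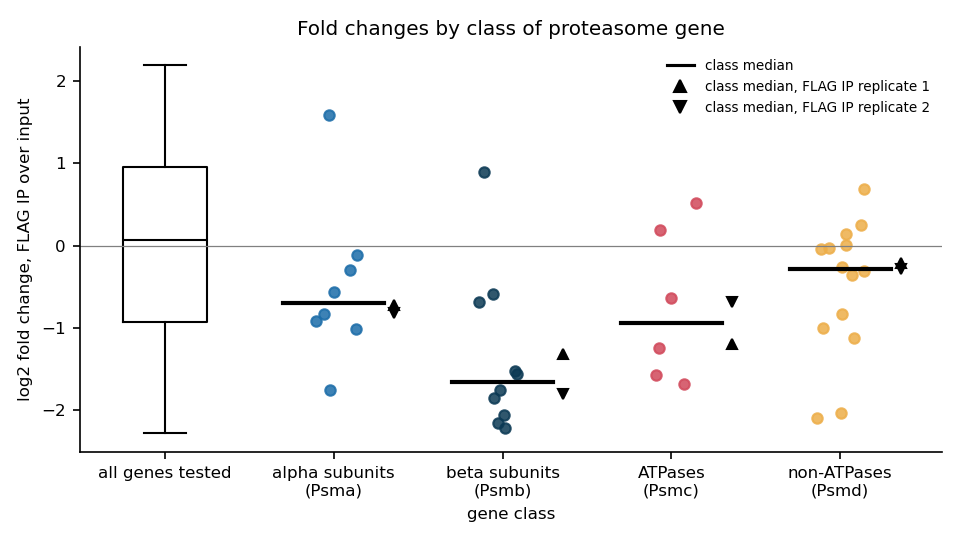
Log2 fold change, FLAG IP over input, of single genes (points) in the 4 main classes, with the class median as a bar and the class median of each FLAG IP array as triangles; the box holds the middle of all 15266 genes tested, with whiskers at the 5th and 95th percentiles. The beta subunits have the lowest median (-1.66), the ATPases and alpha subunits follow (-0.94 and -0.70), and the non-ATPases lie nearest to 0 (-0.28). In that order, the medians with quantile normalization are -1.39, -0.73, -0.28 and 0.12.

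Among the beta subunits, 7 of 10 fell (Psmb8, with FLAG IP signals at background, among them), 1 rose and 2 did not pass. All 7 members of the ordinary beta ring, Psmb1 to Psmb7, had both FLAG IP arrays below both input arrays, with a median log2 fold change of -1.57 and a range of -2.22 to -0.59. Psmb1, a structural beta subunit, had scaled signals of 4.60 and 4.64 on input and 2.58 and 2.23 on FLAG IP. Both FLAG IP arrays of Psmb1 were well below the inputs, and the fall was 4.65-fold (log2 fold change -2.22 ± 0.20 SE, adjusted p = 0.00398). Psmb4, another structural subunit, read 5.37 and 5.19 on input and 2.84 and 3.59 on FLAG IP, a 4.18-fold fall (-2.06 ± 0.31, adjusted p = 0.00918) in which FLAG IP replicate 1 was the lower array. Psmb3, also structural, fell by 1.53 ± 0.25 on the log2 scale, and the 4 structural members Psmb1 to Psmb4 had a median of -1.80. Psmb2 in that set also had both FLAG IP arrays below input (0.63 and 0.03, input mean 1.01), with a difference of -0.68 ± 0.26 that did not pass (adjusted p = 0.0943). By limma, Psmb4 was not called with normexp (adjusted p = 0.0662), and Psmb3 was not called with slide as a block.

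The 3 catalytic subunits of the ordinary ring split 2 to 1. Psmb5, which carries the chymotrypsin-like site, read 4.22 and 4.22 on input and 2.46 and 2.26 on FLAG IP. Its fall of 3.63-fold (-1.86 ± 0.17, adjusted p = 0.00398) was shared by both FLAG IP arrays. Psmb6, which carries the caspase-like site, read 5.72 and 5.71 on input and 4.38 and 3.92 on FLAG IP, a 2.96-fold fall (-1.57 ± 0.22, adjusted p = 0.00806). The call of Psmb6 was lost with slide as a block. Psmb7, with the trypsin-like site, read 2.83 and 2.74 on input and 2.46 and 1.94 on FLAG IP. All 4 arrays of Psmb7 lay within 1 unit of each other, and although both FLAG IP arrays were the lower ones the difference of -0.59 ± 0.24 did not pass (adjusted p = 0.107).

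The inducible counterparts did not move as a set: Psmb10 fell, Psmb9 rose, and Psmb8 was at background on the FLAG IP arrays. Psmb10 read 1.71 and 1.62 on input and -0.36 and -0.64 on FLAG IP, a 4.48-fold fall (-2.16 ± 0.19, adjusted p = 0.00391). Psmb9 read -2.12 and -2.28 on input and -1.44 and -1.17 on FLAG IP, so both FLAG IP arrays were above both inputs (1.87-fold, 0.90 ± 0.19, adjusted p = 0.0211). Psmb8 read -3.34 and -3.53 on input and was not well above background on either FLAG IP array. On FLAG IP replicate 1 the lowest signal well above background was -2.77, higher than both inputs of Psmb8. That array cannot show a fall of Psmb8, so its fitted call (limma, adjusted p = 0.0191) is given without a size. With the normexp correction Psmb8 went the other way (log2 fold change 0.78, adjusted p = 0.51) and Psmb9 was not called (adjusted p = 0.0586). Neither the calls of Psmb9 nor those of Psmb8 held with slide as a block or with either input array left out.

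Set against the subunits they replace, Psmb9 and Psmb10 differed in sign. Psmb9 had a log2 fold change 2.47 higher than Psmb6, by 2.10 on FLAG IP replicate 1 and 2.83 on replicate 2. Psmb10 lay 1.58 below Psmb7, by 1.70 and 1.46 on the 2 arrays. Psmb8 was not set against Psmb5, since its FLAG IP signals are at background. These differences between fold changes were not tested. In the annotation's gene order on chromosome 17, Psmb9, Tap1, Psmb8 and Tap2 follow one another. The peptide transporter genes Tap1 and Tap2 did not pass the test. Both were well above background on 1 of 2 FLAG IP arrays. Their inputs lay below -2.77, the lowest such signal on FLAG IP replicate 1, so they are given without a size.

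**Figure D3:**
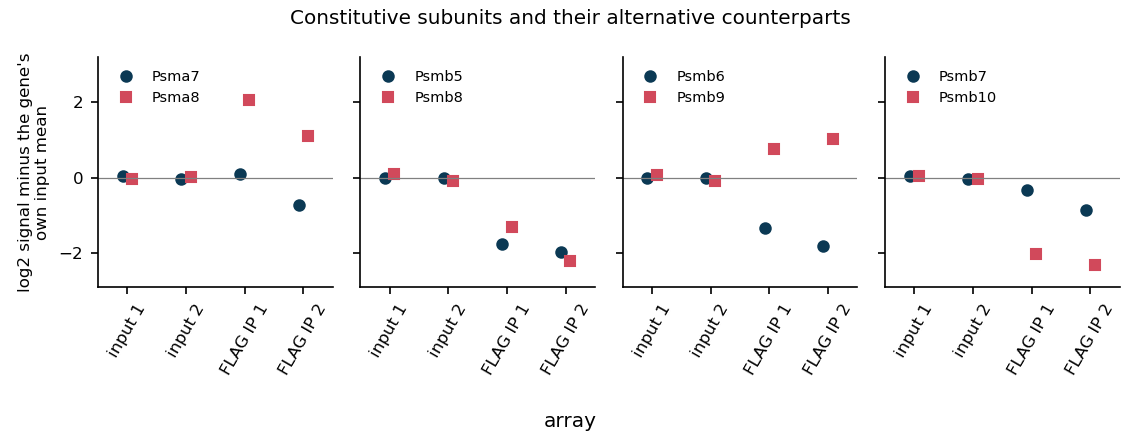
Log2 signal on each of the 4 arrays minus the gene's own input mean, for 4 ordinary subunits (dark circles) and the subunits that replace them (red squares). Psma8 lies above and Psma7 near or below 0 on the FLAG IP arrays, Psmb9 lies above and Psmb6 below, and Psmb10 lies further below than Psmb7, while the FLAG IP points of Psmb8 are not well above background and have no order against Psmb5.

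Among the alpha subunits, 4 of 8 fell, 1 rose and 3 did not pass, and the ordinary ring, Psma1 to Psma7, had a median of -0.83. Psma6 read 3.82 and 3.74 on input and 1.49 and 2.56 on FLAG IP, the largest fall among the alpha subunits (-1.76 ± 0.41, adjusted p = 0.0266), with a gap of more than 1 unit between the FLAG IP arrays. Psma4 read 2.55 and 2.76 on input and 1.85 and 1.42 on FLAG IP (-1.02 ± 0.23, adjusted p = 0.0247). Psma3 and Psma5 fell by 0.92 and 0.83 on the log2 scale. All 4 of these genes had both FLAG IP arrays below both inputs, but none of the 8 alpha genes was called lower by limma with normexp background correction (5 at an unadjusted p under 0.05). With quantile normalization Psma5 was at -0.11 and not called (limma, adjusted p = 0.604). The median of the 8 alpha genes then moved from -0.70 to -0.28, with 3 called lower and 2 higher. Psma1 also lay below input on both arrays (-0.57 ± 0.20, adjusted p = 0.0763) without passing. Psma2 read 5.44 and 5.31 on input and 5.36 and 5.18 on FLAG IP, so its groups overlapped (-0.11, adjusted p = 0.625).

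The germ cell subunit rose, and its counterpart had no settled direction. Psma8 read 1.14 and 1.2 on input and 3.22 and 2.29 on FLAG IP, a 3.00-fold rise (1.58 ± 0.36, adjusted p = 0.0256), the largest among the 43 genes. Psma7, its ordinary counterpart, read 4.90 and 4.83 on input and 4.97 and 4.15 on FLAG IP. One FLAG IP array of Psma7 was above both inputs and the other below them, and the difference of -0.30 ± 0.33 did not pass (adjusted p = 0.476). With quantile normalization the difference of Psma7 was 0.22. The log2 fold change of Psma8 was 1.89 above that of Psma7, by 1.94 and 1.83 on the 2 FLAG IP arrays, which was not tested. The call of Psma8 was lost with normexp (adjusted p = 0.058), with slide as a block (0.087), without the filter on dim probes (0.069) and without either input array (0.138 and 0.0988), and its direction was kept in each.

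In the ATPase ring 3 of 6 genes fell and 3 did not pass. Psmc3 read 3.43 and 3.47 on input and 1.60 and 1.93 on FLAG IP (-1.69 ± 0.19, adjusted p = 0.00533). Psmc1 read 4.51 and 4.44 on input and 2.54 and 3.26 on FLAG IP (-1.58 ± 0.30, adjusted p = 0.0157). Psmc2 read 4.82 and 4.86 on input and 3.53 and 3.65 on FLAG IP, with the FLAG IP arrays close together (-1.24 ± 0.16, adjusted p = 0.00665). The other ATPases lay nearer to input. Psmc5 (-0.64, adjusted p = 0.198) was lower on both FLAG IP arrays. Psmc4 read 3.70 and 3.66 on input and 4.09 and 3.65 on FLAG IP, so that its groups overlapped (0.19, adjusted p = 0.491). Psmc6 read 4.08 and 4.02 on input and 4.17 and 4.97 on FLAG IP, both above input but nearly 1 unit apart (0.52 ± 0.32, adjusted p = 0.237). The proteins of these 6 genes sit in equal number in 1 ring, and their log2 fold changes ranged from -1.69 to 0.52. Psmc3 was the 1 ATPase gene still called lower with normexp, where Psmc1 (adjusted p = 0.0716) and Psmc2 (0.068) were not, nor were they with slide as a block (0.0785 and 0.108), and Psmc2 was not when its probes were averaged (0.0874).

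The non-ATPase genes were the class nearest to input: 4 of 14 fell, 1 rose and 9 did not pass. The share that fell, 28.6%, was near the 25.4% of all genes tested. Their median of -0.28 moved to 0.12 with quantile normalization, so the class as a whole has no settled direction. Psmd9, a chaperone of base assembly, read 0.74 and 0.67 on input and -1.50 and -1.29 on FLAG IP, a 4.28-fold fall (-2.10 ± 0.17, adjusted p = 0.00383). Psmd8, a lid subunit, read 2.42 and 2.30 on input and 0.20 and 0.44 on FLAG IP, a 4.11-fold fall (-2.04 ± 0.18, adjusted p = 0.00398). The FLAG IP arrays of both genes lay within 0.3 of each other. The lid subunits Psmd6 and Psmd13 fell by 1.0 and 1.13 on the log2 scale (adjusted p = 0.0116 and 0.0461). By limma, Psmd9 was not called with normexp (adjusted p = 0.0512), nor was Psmd6 (0.0756, and 0.21 with slide as a block). Psmd13 was not called with normexp (0.148), quantile normalization (0.0539), slide as a block (0.186), no filter on dim probes (0.105) or probes tested singly (0.0547). Psmd1, a large scaffold subunit of the base, was the 1 gene of the regulatory particle that rose. It read 2.49 and 2.46 on input and 3.24 and 3.07 on FLAG IP (1.61-fold, 0.69 ± 0.17, adjusted p = 0.0304). The call of Psmd1 was lost with the replicate block (adjusted p = 0.0823), normexp (0.246), slide as a block (0.347), no filter on dim probes (0.0738) and without either input array (0.374 and 0.37).

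The other 9 Psmd genes had differences between -0.84 and 0.25 and did not pass. Psmd14, the lid's deubiquitinase, read 3.64 and 3.57 on input and 3.66 and 3.56 on FLAG IP, 4 overlapping values with a difference of 0.00 (adjusted p = 0.989). A dimmer probe of Psmd14, tested on its own by limma, was below input on both FLAG IP arrays without passing (-0.52 ± 0.16, adjusted p = 0.0649). Psmd11, a lid subunit, read 4.43 and 4.34 on input and 4.37 and 4.31 on FLAG IP (-0.05, adjusted p = 0.818). Psmd3, also of the lid, read 6.02 and 5.95 on input and 6.42 and 5.48 on FLAG IP, with 1 array on either side of the inputs (-0.03, adjusted p = 0.954). The ubiquitin receptor Psmd4 (-0.26, adjusted p = 0.330) and the scaffold subunit Psmd2 (-0.36, adjusted p = 0.278) lay a little below input. Psmd5, a base chaperone, read 2.76 and 2.76 on input and 2.56 and 3.47 on FLAG IP (0.25, adjusted p = 0.582). Over the lid, 3 of 8 genes fell (37.5%) with a median of -0.18. Over the base, ATPases included, 3 of 9 fell (33.3%) and 1 rose with a median of -0.36. Of all genes tested, 25.4% fell.

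Among the activators and the inhibitor, 1 of 4 genes fell (25%, against 25.4% of all genes tested) and 3 did not pass. Psme1, a subunit of the interferon-inducible activator ring, read 4.02 and 3.88 on input and 1.52 and 1.34 on FLAG IP. Both FLAG IP arrays were far below the inputs, and the 5.72-fold fall was the largest of the 43 genes (-2.52 ± 0.17, adjusted p = 0.00381). Psme3, the nuclear activator of the same family, read 0.80 and 0.90 on input and 1.62 and 1.31 on FLAG IP, above input on both arrays and just outside the threshold (0.62 ± 0.19, adjusted p = 0.0567). Psme4, an activator with a known role in spermatogenesis, read 4.01 and 3.98 on input and 3.57 and 4.12 on FLAG IP, which overlap (-0.15, adjusted p = 0.635). Psmf1, an inhibitor of the core, read -0.60 and -0.58 on input and -1.70 and -0.31 on FLAG IP (-0.42 ± 0.51, adjusted p = 0.532).

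Psmc3ip, which shares the name pattern alone, read 1.03 and 1.11 on input and -1.11 and -0.64 on FLAG IP, a 3.86-fold fall (-1.95 ± 0.23, adjusted p = 0.0055). Counted with the regulatory particle it moves that median from -0.33 to -0.36.

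How far a gene lay from input was similar on both FLAG IP arrays. Over 42 genes without Psmc3ip, the differences from the input mean correlated between replicate 1 and replicate 2 with Pearson's r = 0.82 and Spearman's rho = 0.81, a description over genes that share the input mean. The FLAG IP arrays parted by more than 1 unit for 3 genes, Psmf1 (1.39), Psmd10 (1.31) and Psma6 (1.07), of which Psma6 was called lower.

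More than 1 tested probe was available for 16 of the genes, and 63 of the 66 probes passed the filter. With every probe tested on its own, 25 of 63 fell and 5 rose, against 23.4% and 24.6% of all 23283 probes. Psmb3, Psmc3ip and Psmd9 fell by every probe. Psmb8 did too, but its probes were not well above background on either FLAG IP array. For other genes the probe decides the reading. Psmf1 had a probe that fell (-0.94, adjusted p = 0.0193), one that did not pass (-0.42) and one that rose (1.5 ± 0.22, adjusted p = 0.0113). Psmd12, a lid subunit, had its brightest probe at 0.14, another at -0.47 and 1 that rose by 1.24 ± 0.16 (adjusted p = 0.00866). Psmd7, also of the lid, had 2 probes that did not pass (-0.31 and -0.80) and a dim one that fell (-2.40, adjusted p = 0.00672), well above background on 1 of 2 FLAG IP arrays. The probes of Psmc4 (0.19 and -0.43) and Psmc6 (0.52 and -0.07) also differed in sign, with none of these 4 called. Where each probe lies in its transcript was not examined, so a shared transcript and different isoforms cannot be told apart.

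**Figure D4:**
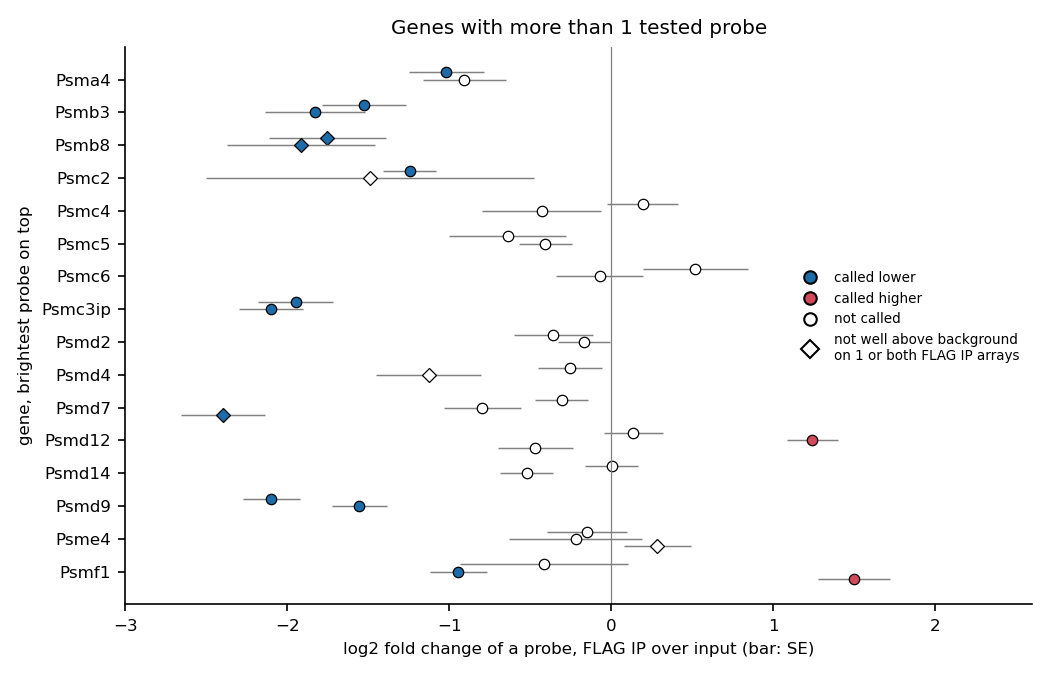
Log2 fold change of each tested probe, FLAG IP over input (point, with its SE as a bar), for the 16 genes with more than 1 tested probe, ordered from the brightest probe (mean over the 4 arrays) downwards; blue fell, red rose, white did not pass, and diamonds were not well above background on 1 or both FLAG IP arrays. The probes of Psmf1 and Psmd12 spread over both sides of 0, while those of Psmb3, Psmb8, Psmd9 and Psmc3ip lie together on the left.

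Proteasome genes are induced together by Nfe2l1 (also called Nrf1), a factor that with its Maf partners binds antioxidant response elements. The core letters of such an element, TGACNNNGC, and the related TGAGNNNGC were searched on both strands in RefSeq promoter windows (GRCm38.p6), from 250 bases before to 50 after each gene's start. At least 1 of these 9-letter strings was found in 16 of 36 genes with a window (44.4%), against 35.3% of 11940 tested genes and 30.8% of all 27025 genes in the table. Core genes held it in 7 of 14 and regulatory particle genes in 7 of 17. A pair of examples from genes that fell (Psmb5 and Psmd9) and a pair from genes with a probe that rose (Psmd1 and Psmd12) are shown, with the matching letters in capitals and 6 bases on either side.
Psmb5, chr14:54618028-54618048, minus strand, TGACNNNGC centred 43 bases before the start: aagttgTGACgtcGCggcgtt
Psmd9, chr5:123228153-123228173, plus strand, TGACNNNGC centred 27 bases before the start: agccggTGACcccGCccactt
Psmd1, chr1:86064389-86064409, plus strand, TGAGNNNGC centred 220 bases before the start: gggtgaTGAGtggGCctctct
Psmd12, chr11:107479494-107479514, plus strand, TGAGNNNGC centred 24 bases before the start: agtggaTGAGcggGCgacttc

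The letters stand in promoters of genes that fell and of genes that did not. The 15 proteasome genes with them had a median log2 fold change of -1.02 and the 20 without them of -0.60, Psmc3ip left out. A match shows that the letters are present and no more, and nothing in these arrays measures binding there.

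The genes that control proteasome transcription lay on the other side of input from most subunits. Of 9 tested, 5 rose and none fell by limma (0 lower at an unadjusted p under 0.05 too), where 28.0% of all genes tested rose and 25.4% fell. The range was 0.24 to 1.42 and the median 0.88. All 9 were also above input with normexp, quantile and median scaling, but with normexp none was called and the median was 0.65. The small Maf partners Mafg and Mafk rose by 1.42 and 1.24, the related activator Nfe2l2 by 1.24, and the CCAAT-binding subunits Nfya and Nfyb by 1.02 and 0.88. Nfe2l1 itself was 0.69 higher without passing (adjusted p = 0.0957).

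Subunits and helpers outside the Psm names were mixed. The counts below stand beside 25.4% of all genes tested that fell and 28.0% that rose. Of 8 other subunits and bound factors, 2 fell and 1 rose, with a median of 0.04 (-0.29 with normexp). Sem1, a small lid subunit, fell by 1.97 (adjusted p = 0.00414) and Adrm1, a ubiquitin receptor of the base, by 0.88 (adjusted p = 0.0255). Zfand5, a zinc finger protein that stimulates the proteasome, rose 6.31-fold (log2 fold change 2.66, adjusted p = 0.00381). Among 4 assembly and import factors, Pomp (-0.92) and Fbxo7 (-0.71) fell, and Akirin2 (0.70), which carries proteasomes into the nucleus, rose. The median of these 4 was -0.30 and turned to 0.18 with quantile normalization. The assembly chaperone Psmg3, which the deposited table calls by another name, fell by 1.88 (adjusted p = 0.00395), and Psmg1 (-0.31) and Psmg2 (0.45) did not pass. Psmb11, the thymus subunit, also under another name there, was called higher by limma (adjusted p = 0.0124), but it was well above background on 1 of 2 FLAG IP arrays. Its inputs of -5.36 and -5.41 lay below -2.77, the lowest such signal on FLAG IP replicate 1. That array cannot show a change of Psmb11, so the call is given without a size.

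Genes that make and carry ubiquitin fell and rose, as did 25.4% and 28.0% of all genes tested. Of 7 genes for ubiquitin, its activation and the p97 segregase, 2 fell and 1 rose, with a median of -0.41 that turned to 0.23 with quantile normalization. The ubiquitin genes Rps27a and Ubb fell by 1.89 and 0.80, and the activating enzyme Uba6 rose by 1.47. With normexp none of the 7 was called lower by limma (2 at an unadjusted p under 0.05), and with quantile normalization none was either (0 unadjusted). Of 8 ubiquitin receptors and shuttle factors, Ubqln2 fell by 1.55 and Ddi2, Nbr1 and Ubqln1 rose by 1.61, 1.33 and 0.57 (median 0.24). With normexp that list had a median of 0.03 with 1 gene called, which was higher, and with quantile normalization 0.77 with 1 lower and 4 higher. Ddi2 is the protease that activates Nfe2l1. Of 11 antigen processing and interferon response genes, 4 fell, among them B2m (-2.38), the shared light chain of class I molecules, and the peptide trimming enzyme Erap1 (-2.36), and 2 rose, the interferon regulatory factors Irf1 (1.86) and Irf8 (1.38). The median of that list was -0.46, and with normexp it was -0.04, with 2 called lower. Erap1 was well above background on 1 of 2 FLAG IP arrays. The summed macrophage marker signal, from cells that carry immunoproteasomes, went from between 4.83 and 4.97 on input to between 0.96 and 1.11 on FLAG IP arrays. The median log2 fold change of these markers was -1.37, and -0.09 with normexp, where 3 of 7 lay above 0. The part of macrophages in the values of Psmb8, Psmb10, Psme1, Psmb9 (which rose) and the antigen processing genes was not tested.

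**Figure D5:**
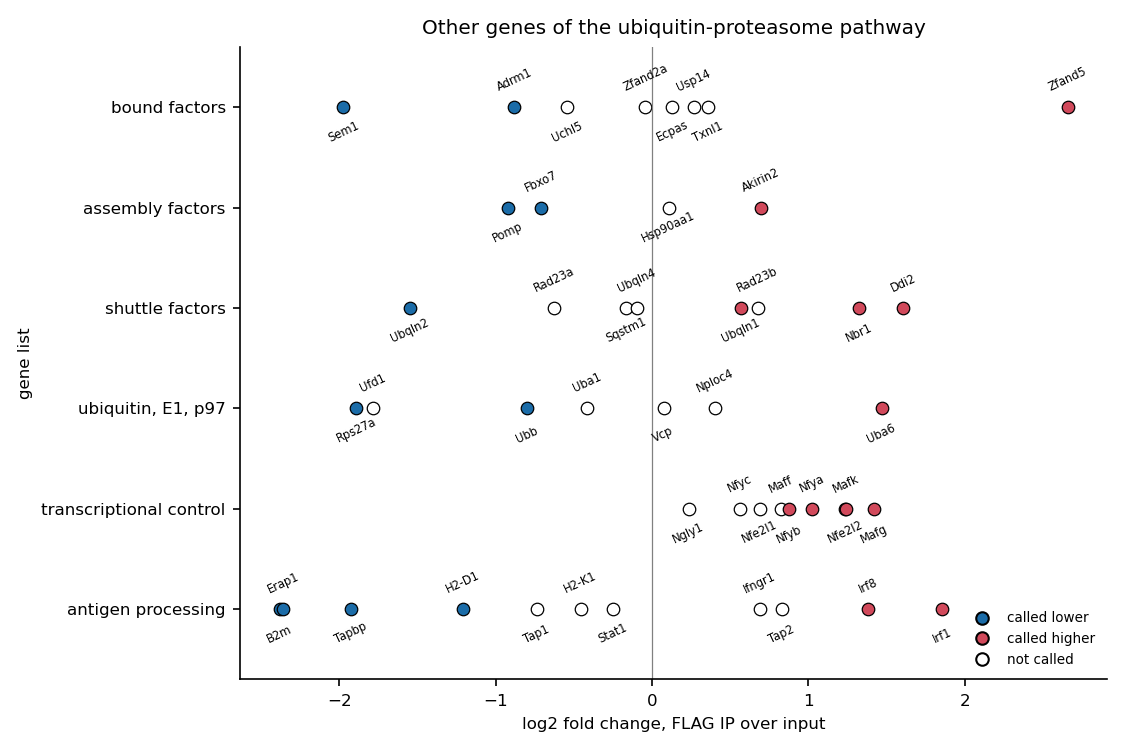
Log2 fold change, FLAG IP over input, of the tested genes of 6 lists from the ubiquitin-proteasome pathway; blue points fell, red rose and white did not pass limma's adjusted p of 0.05. All 9 transcriptional control genes lie right of 0, and the other lists have points on both sides.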

How the data were processed

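The deposited data are Agilent one-colour scanner files of 4 arrays (2 input, 2 FLAG IP), per the file headers, and the submitters' processing notes name Agilent Feature Extraction 9.5. Their values are intensities that the scanner software had already corrected for background, per the file headers. The authors also deposited a table with raw values and a linear ratio of FLAG IP to input. Its raw values were the mean of a group's 2 arrays within 1% for 99.87% (input) and 99.79% (FLAG IP) of probes, so the table holds no separate replicates. The array design's own header names genome build mm7, from which no coordinates were used. Gene names were updated through Entrez IDs to RefSeq (GRCm38.p6), which also gave the promoter windows.

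From the deposited intensities, log2 signals were taken minus each array's 75th percentile over non-control spots. Spots marked as outliers (52 to 104 an array) were left out and spots of a probe averaged. No spot was saturated. A probe was kept where both arrays of a group, either one, had it well above background, and the probe with the highest mean stood for its gene. FLAG IP was compared with input in limma 3.58.1 (R 4.3.3; lmFit and eBayes, two-sided, 2 residual degrees of freedom), with Benjamini-Hochberg adjustment over 15266 genes and a threshold of 0.05. Errors are limma's SE with n = 2 a group. The procedure was tested on simulated data. A gene at background on both arrays of a group (Psmb8) was set against the lowest signal among probes well above background and given without a size. Tap1, Tap2 and Psmb11, at background on FLAG IP replicate 1, were also given without one.

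Proteasome genes, their classes, the pathway lists and the cell markers were chosen with earlier results of these data known, and 4 current family members that the deposited table names otherwise were added after the values were seen. Values on every array are given for the 2 lowest and 2 highest genes of each class and, whatever their value, for the inducible and germ cell subunits with their counterparts, the activators and Psmc3ip. Other genes were named for their role or an overlap of their arrays. Alternatives were normexp background correction (offset 50, on median signals, the files holding no mean signals), quantile and median scaling, no filter and a stricter filter on dim probes, averaging the probes of a gene, testing probes singly, keeping marked spots, trend and robust settings, a block for the replicate number, a block for the slide, and leaving out each array in turn. A gene of the ubiquitin list is not reported here and was left out of that list's counts. A planned comparison with protein length was not made, as protein sequences were not used here. Input replicate 1 was alone on slide 1 and the other 3 arrays were on slide 2. A block for the slide therefore takes up that array in full. Its fold changes are those found without input replicate 1, so it cannot adjust for the slide.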

Additional observations from a re-analysis of the deposited data

How the results depend on the processing

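All values here come from the deposited intensities. Over 15 alternatives, and over 3 other choices of class members made after seeing the data, the core and regulatory medians were both below 0. The trend and robust settings and the replicate block cannot move these medians. Slide as a block gave the medians found without input replicate 1 (-0.993 and -0.36 in both), as that array was alone on its slide. Its fold changes thus rest on input replicate 2 alone, and its calls below are no check on the slide. The regulatory median moved from -0.33 to -0.69 with normexp, where the median of all genes also rose from 0.07 to 0.38, to -0.11 with quantile normalization, -0.46 with median centring, -0.61 when probes of a gene were averaged and -0.45 when probes were tested singly. Limma called 8158 of all genes, 2670 with normexp and 2976 with slide as a block, and 0 to 12629 with 1 array left out. Among the proteasome genes, 9 were called lower with normexp (20 unadjusted) and 9 with slide as a block (15 unadjusted). None was called higher by limma with normexp, without the filter on dim probes or with slide as a block (2, 3 and 1 at an unadjusted p under 0.05), and 5 probes were when tested singly. With 1 array left out, 0 to 28 were called lower and 0 to 6 higher, the core median ran from -1.15 to -0.79, the regulatory median from -0.42 to -0.29, and the gap between them from -0.86 to -0.37. Psmb1, Psmb5, Psmb10, Psmc3, Psmc3ip, Psmd8 and Psme1 were called lower in the reported comparison, with normexp and with slide as a block, and Psmb1, Psmb10, Psmd8 and Psme1 also without input replicate 2. The replicate block gave 20 lower and 2 higher, with Psmd1 at an adjusted p of 0.0823; the numbers do not pair the arrays by the labels, and the deviations of same-numbered arrays correlated with r = 0.05 over 15266 genes. Of the called genes only Psmb8 changed direction (0.78 with normexp). Genes near 0 changed sign as follows: with normexp Psmd14 (-0.44), Psmd5 (-0.059), Psmc4 (-0.033), Psmd12 (-0.37) and Psmc6 (-0.22); with quantile normalization Psmd3 (0.87), Psme4 (0.13), Psmd4 (0.031), Psma7 (0.22), Psma2 (0.64, adjusted p = 0.0349), Psmd2 (0.34) and Psmd11 (0.37). Psmd14 was at -0.13 with median centring, and averaging probes gave -0.26 for Psmd14, -0.12 for Psmc4 and 0.047 for Psmf1. Psmd3 was at 0.006 with slide as a block. With 1 array left out, Psmd3 ran from -0.50 to 0.44, Psma7 from -0.71 to 0.11 and Psmd5 from -0.20 to 0.71. Psmc4 ran from -0.025 to 0.41, Psme4 from -0.42 to 0.12 and Psmd14 from -0.044 to 0.05. The reported probe of Psmf1 was at -1.11 on FLAG IP replicate 1 and 0.28 on replicate 2, each relative to the input mean. Without FLAG IP replicate 2 another Psmf1 probe was the brightest and stood for the gene, at -0.83. With 1 FLAG IP array left out the lone array is assumed to vary like the input arrays. The cause of each change was not tested. FLAG IP replicate 1 had the weakest signal over background and limits the precision of the dim genes.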
